A study of Mus musculus with 12 samples.

Results

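Expression of 10 pericentral target genes of the Wnt/β-catenin pathway was compared between livers of WT and Marchf6 LKO mice. The genes were taken by name from a list, and the list leaves out the cytochromes P450. It holds Glul, Oat, Slc1a2, Rhbg, Lgr5, Axin2, Tbx3, Znrf3, Rnf43 and Nkd1, which are 10 of the 54232 genes in the count table. All 10 passed the filter on low counts, as did 17509 genes in all. With edgeR, limma voom or DESeq2, no gene of the list had an adjusted p under 0.05, beside 0.428%, 0.485% and 1.95% of all genes. The estimates of the 6 Wnt feedback and transcription genes all lay below 0 in LKO livers, beside 50.0% of all genes. The genes and lists were chosen with earlier results of these data known, so this count is a description. The 95% intervals of Lgr5, Znrf3 and Nkd1 included 0, and 13 of 16 periportal genes also had estimates below 0. Glul, the classical marker of pericentral hepatocytes, averaged 1041 ± 87.7 CPM in WT and 1036 ± 64.4 CPM in LKO livers (SD, n = 6 each).

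Both groups were male C57Bl/6J mice, 10 weeks old, on chow and fasted for 4 h, with 6 livers per genotype and 1 library per mouse. WT mice carried the floxed Marchf6 fl/fl alleles without Cre, and LKO mice carried the same alleles with AlbuminCre. Cre under the albumin promoter was used to delete the gene in hepatocytes, and whether other liver cells of LKO mice keep it was not checked here. Both groups share the floxed alleles. The genotype label of the LKO samples reads "Marchft liver KO".

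Hepatocytes around the central vein differ from those around the portal vein because endothelial cells of the central vein secrete Wnt ligands and R-spondin 3. The ligands stop the destruction complex from degrading β-catenin, which then acts with TCF/LEF factors in the nucleus and switches on pericentral genes. Some of these genes, such as glutamine synthetase, clear ammonia, and others encode proteins that amplify or dampen the Wnt signal itself.

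Libraries held 14860414 to 22111926 reads assigned to genes, of which the 20 most abundant genes took 23.6% to 26.0%. No molecular identifiers are described for the libraries, so copies of a molecule may be counted as separate reads, and depth does not give the number of molecules. Marchf6 (ENSMUSG00000039100), the targeted gene, was at 241 ± 8.36 CPM in WT and 226 ± 16.5 CPM in LKO livers (log2 fold change −0.09, SE 0.060, adjusted p = 0.585, edgeR). A count over the whole gene does not show the loss of 1 exon, so it does not check the labels. Library numbers of all WT livers came before those of the LKO livers, and library order and genotype cannot be told apart. Values are read counts scaled to a common library size with TMM (CPM), and fold changes are LKO over WT on the log2 scale from the quasi-likelihood test of edgeR, adjusted by Benjamini-Hochberg over the 17509 genes. Over all genes tested 0.428% passed an adjusted p of 0.05, and the median log2 fold change was 0.00016.

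The sequence before the start site is shown for 3 of the genes, as context for their shared regulator. RefSeq promoter windows of 250 bases before a start site (GRCm38.p6) were found for 6 of the 10 genes, in 7 windows. Each was searched on both strands for the core of the TCF/LEF motif, CTTTGA, which reads TCAAAG on the other strand. The core was found in 1 of the 7 windows, which belongs to Slc1a2, and in 13.8% of 32851 RefSeq windows of the same length. Windows are written 5′ to 3′ on the plus strand, the strand of all 3 genes, in lower case with the motif in capitals. The first is that of Glul at chr1:153899679-153899928, the second that of Axin2 at chr11:108920099-108920348, and the third that of Slc1a2 at chr2:102706188-102706437, a start site within the annotated gene.
Glul: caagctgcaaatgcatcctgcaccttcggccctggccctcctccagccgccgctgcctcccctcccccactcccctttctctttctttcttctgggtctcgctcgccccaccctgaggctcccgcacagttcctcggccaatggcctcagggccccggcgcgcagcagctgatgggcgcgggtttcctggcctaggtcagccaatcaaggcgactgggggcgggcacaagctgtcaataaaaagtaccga
Axin2: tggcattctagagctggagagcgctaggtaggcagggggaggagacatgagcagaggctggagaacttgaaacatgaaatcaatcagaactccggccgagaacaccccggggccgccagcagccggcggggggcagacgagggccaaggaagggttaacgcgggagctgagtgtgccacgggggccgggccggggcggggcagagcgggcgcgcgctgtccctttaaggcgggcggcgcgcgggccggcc
Slc1a2: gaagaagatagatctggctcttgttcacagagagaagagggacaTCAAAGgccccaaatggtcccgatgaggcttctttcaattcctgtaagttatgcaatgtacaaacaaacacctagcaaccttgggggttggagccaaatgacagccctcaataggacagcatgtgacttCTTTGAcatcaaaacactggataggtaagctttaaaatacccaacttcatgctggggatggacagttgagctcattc
In the Slc1a2 window as written, the leftmost base of the antisense match lay 206 bases before the start site, and that of the sense match 77 bases before it. Windows of Glul and Axin2 held no copy of these 6 letters. A match is a run of letters and was not tied to any binding here.

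Of the 4 enzymes and transporters, none passed the test, and 3 had estimates above and 1 below 0, with a median log2 fold change of 0.03. Glul (ENSMUSG00000026473, chr1:153899944-153909723, GRCm38, plus strand) encodes glutamine synthetase, which joins ammonia to glutamate in the last rows of hepatocytes before the central vein. Its level ran from 929 through a median of 1022 to 1193 CPM in WT livers. In LKO livers the lowest, median and highest values were 936, 1061 and 1090 CPM. All LKO values of Glul lay inside the WT range. The log2 fold change was −0.0065 (SE 0.070), with a 95% interval of −0.16 to 0.14 that corresponds to 0.897 to 1.10 fold, and the adjusted p was 0.985 in edgeR. Glul had 13453 to 25220 reads per liver, and its coefficient of variation was 8.43% in WT and 6.21% in LKO livers.

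Oat (ENSMUSG00000030934, chr7:132557478-132576398, minus strand) encodes ornithine aminotransferase, which passes ornithine on towards glutamate. WT livers held 699 CPM at the lowest, 817 at the median and 1211 at the highest. LKO livers held 718, 863 and 1082 CPM in the same order. All LKO values lay inside the WT range, with means of 878 ± 182 and 887 ± 153 CPM, a fold of 1.01 (95% interval 0.826 to 1.24) and an adjusted p of 0.982 in edgeR. Oat varied more between livers of one genotype than Glul, with a coefficient of variation of 20.8% in WT and 17.2% in LKO livers.

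Slc1a2 (ENSMUSG00000005089, chr2:102658659-102790784, plus strand) encodes a glutamate transporter of the plasma membrane that supplies glutamate to these cells. WT livers ranged from 181 through 235 to 327 CPM, and LKO livers from 191 through 251 to 303 CPM. The LKO values lay within the WT range. Means were 241 ± 50.7 and 248 ± 39.4 CPM, a fold of 1.03 (95% interval 0.844 to 1.26) with an adjusted p of 0.942 in edgeR.

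Rhbg (ENSMUSG00000104445, chr3:88242874-88254709, minus strand) encodes an ammonium transporter and was scarce, with 19 reads in the lowest and 80 in the highest liver. WT livers ranged from 1.31 through 2.21 to 2.72 CPM. LKO livers ranged from 2.28 through 2.65 to 3.72 CPM. All 6 LKO livers were above the WT mean, but the ranges overlapped. Means were 2.14 ± 0.525 and 2.77 ± 0.496 CPM, a log2 fold change of 0.37 (95% interval −0.01 to 0.75, SE 0.18) with an adjusted p of 0.449 in edgeR. Of its exon length, 1190 nt or 61.4% is shared on the same strand with the gene Gm38392, which had 0 to 1 reads per liver, and the level of Rhbg is uncertain for that reason.

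**Figure D1:**
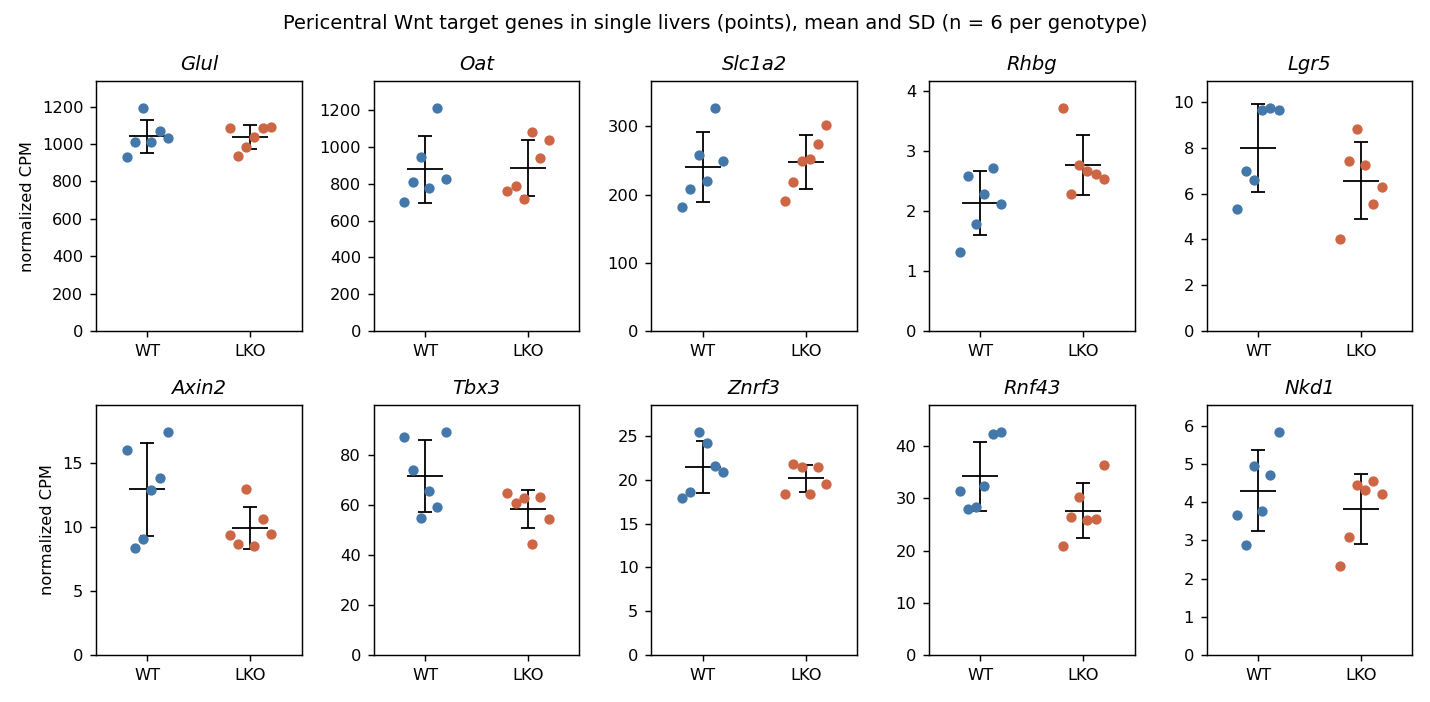
Normalized CPM of each of the 10 genes (y axes start at 0) in single livers of WT and LKO mice (points), with the mean (long bar) and SD (error bar) of 6 livers. The groups overlap for all 10 genes, and Axin2 ranges from 8.36 to 17.4 CPM in WT and from 8.49 to 12.9 CPM in LKO livers.

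The other 6 genes act in the Wnt pathway or in transcription, and none of them passed the test either. Their median log2 fold change was −0.30, and their single estimates ran from −0.38 for Axin2 to −0.09 for Znrf3. At an unadjusted p under 0.05 in edgeR, 3 of the 10 genes were counted, namely Axin2, Tbx3 and Rnf43, all with lower estimates in LKO livers. Over all genes tested 11.7% had such a p in either direction and 5.36% in the lower direction. That count was 2 with limma voom, beside 12.0% of all genes, and 3 with DESeq2, beside 11.6%. It was 1 in edgeR with each of the stricter filters (at least 10 reads in every liver, or filterByExpr of edgeR), and it was 0 without WT replicate 6 or without LKO replicate 4. It was 1 without WT replicate 1 and without LKO replicate 1, 5 or 6. The difference between the enzymes and the feedback genes was not tested.

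Axin2 (ENSMUSG00000000142, chr11:108920349-108950783, plus strand) encodes a scaffold of the destruction complex that is switched on by β-catenin and feeds back on it. WT livers ranged from 8.36 through 13.3 to 17.4 CPM. LKO livers ranged from 8.49 through 9.38 to 12.9 CPM. WT replicates 2 and 3 were at the level of the LKO livers, replicates 1, 5 and 6 were above all LKO livers, and 5 of 6 LKO livers were below the WT mean. The means of 12.9 ± 3.65 and 9.90 ± 1.66 CPM gave a log2 fold change of −0.38 (SE 0.17, 95% interval −0.75 to −0.01), with an adjusted p of 0.404 in edgeR.

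Tbx3 (ENSMUSG00000018604, chr5:119670669-119684724, plus strand) encodes a T-box transcription factor of pericentral hepatocytes. WT livers ranged from 54.6 through 69.8 to 89.3 CPM and LKO livers from 44.3 through 61.6 to 64.7 CPM. All 6 LKO livers were below the WT mean, and 2 WT livers, replicates 3 and 5, were within the LKO range. Means were 71.6 ± 14.4 and 58.2 ± 7.73 CPM, a log2 fold change of −0.30 (SE 0.13, 95% interval −0.57 to −0.03), with an adjusted p of 0.374 in edgeR. The antisense gene Tbx3os1 had 118 to 226 reads per liver and shares 115 nt, or 1.74%, of the exons of Tbx3, so reads there cannot be told apart without strand.

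Rnf43 (ENSMUSG00000034177, chr11:87662722-87735539, plus strand) and Znrf3 encode membrane ubiquitin ligases that remove Frizzled receptors from the cell surface and so dampen Wnt signalling. For Rnf43, WT livers ranged from 28.0 through 31.9 to 42.8 CPM and LKO livers from 20.8 through 26.2 to 36.4 CPM. In 5 of 6 LKO livers Rnf43 was lower than the WT mean, while LKO replicate 6 was above 4 of the WT livers. The means of 34.2 ± 6.68 and 27.6 ± 5.26 CPM gave a log2 fold change of −0.31 (SE 0.14, 95% interval −0.60 to −0.01), with an adjusted p of 0.403 in edgeR. Znrf3 (ENSMUSG00000041961, chr11:5276324-5444847, minus strand) ranged from 18.0 through 21.2 to 25.5 CPM in WT livers and from 18.4 through 20.5 to 21.8 CPM in LKO livers. Its LKO values lay within the WT range, and the log2 fold change was −0.09 (95% interval −0.28 to 0.11, adjusted p = 0.758, edgeR).

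Lgr5 (ENSMUSG00000020140, chr10:115450311-115587780, minus strand) encodes a receptor for R-spondins, which protect Frizzled from those ligases. WT livers ranged from 5.32 through 8.31 to 9.74 CPM and LKO livers from 4.00 through 6.75 to 8.83 CPM. WT replicates 4 to 6 were above all LKO livers, and the other WT livers were among them. The log2 fold change was −0.29 (SE 0.19, 95% interval −0.70 to 0.11, adjusted p = 0.584, edgeR), from 77 to 186 reads per liver.

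Nkd1 (ENSMUSG00000031661, chr8:88521354-88594884, plus strand) encodes an inhibitor that binds Dishevelled. WT livers ranged from 2.88 through 4.24 to 5.86 CPM and LKO livers from 2.33 through 4.27 to 4.56 CPM. The medians were close, and 3 of 6 LKO livers were below the WT mean. The log2 fold change was −0.17 (SE 0.19, 95% interval −0.58 to 0.24, adjusted p = 0.789, edgeR).

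**Figure D2:**
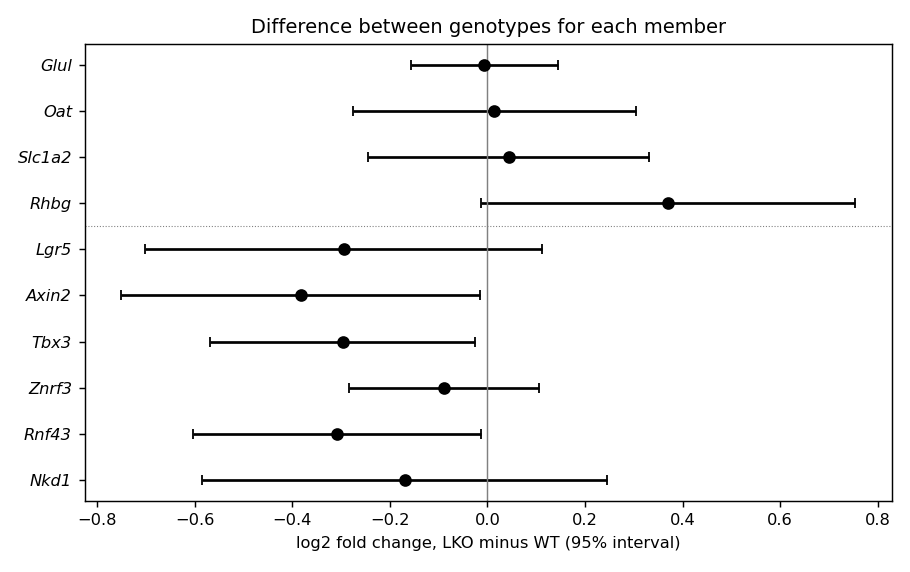
Log2 fold change of each of the 10 genes, LKO minus WT (x axis), with the 95% interval from edgeR (bars). The dotted line parts the 4 enzymes and transporters from the 6 feedback and transcription genes, whose points all lie left of 0, between −0.38 and −0.09.

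Set against all genes tested, the 10 genes gave 0 called, beside 0.428% called in all, and 0 with groups that did not overlap, beside 1.30%. Of the 10 genes, 7 had an estimate below 0, beside 50.0% of all genes, and their median log2 fold change was −0.13. Of the 6 feedback and transcription genes, 6, 5, 2, 5, 5 and 5 were below the WT mean in LKO livers 1 to 6, and 4, 5, 4, 4, 1 and 1 in WT livers 1 to 6. LKO replicate 3 had a low count for its group, WT livers 5 and 6 had the lowest counts, and the groups overlapped. In bulk liver RNA, fewer cells of a type and less RNA per cell cannot be told apart.

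The levels of the genes per kilobase of exon (normalized CPM per kb, mean ± SD of 6 WT livers) spanned a wide range. The length was that of all annotated exons of a gene joined, and the transcripts used in liver were not examined. Oat had 372 ± 77.2 and Glul 313 ± 26.4 CPM per kb, and their ranges overlapped. Slc1a2 followed at 18.3 ± 3.86, Tbx3 at 10.8 ± 2.17, Rnf43 at 5.21 ± 1.02 and Znrf3 at 2.72 ± 0.379 CPM per kb, and each of these steps, including the step from Glul to Slc1a2, separated all livers of both genotypes. Axin2 was at 2.35 ± 0.662, Rhbg at 1.10 ± 0.271, Nkd1 at 0.945 ± 0.235 and Lgr5 at 0.779 ± 0.188 CPM per kb. Neighbours from Znrf3 to Axin2 and from Nkd1 to Lgr5 overlapped in both genotypes. Axin2 and Rhbg separated in WT livers but not in LKO livers, and Rhbg and Nkd1 separated in LKO livers but not in WT livers. In LKO livers the order of the means was the same, with Oat at 376 and Glul at 312 at the top and Lgr5 at 0.639 CPM per kb at the bottom. The order depends on the lengths taken. In WT livers, without division by length, Lgr5 at 7.99 CPM was above Nkd1 at 4.31 and Rhbg at 2.14 CPM. The place of Rhbg is also uncertain because of the exons it shares with Gm38392.

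The rest of the pathway was read from 6 lists of Wnt genes with 95 genes in the table, of which 68 were tested and 0 were called in edgeR and limma voom. DESeq2 called 1, the inhibitor Notum. At an unadjusted p under 0.05 in edgeR 12 of them were counted, beside 11.7% of all genes, 6 with lower and 6 with higher estimates. Among ligands and ligand secretion 12 of 25 genes were tested, 6 estimates were above and 6 below 0, and the median log2 fold change was 0.01. Rspo3, the R-spondin of the central vein, was at 4.41 ± 0.463 CPM in WT and 5.27 ± 0.391 CPM in LKO livers (log2 fold change 0.25, adjusted p = 0.331, edgeR). Wnt2 and Wnt9b, the ligands made by liver endothelial cells, were at 2.04 ± 0.570 and 1.53 ± 0.540 CPM in WT livers, and their log2 fold changes were 0.08 (adjusted p = 0.925) and −0.14 (adjusted p = 0.898) in edgeR.

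Of the receptors and co-receptors, 12 of 17 were tested, 5 estimates were above and 7 below 0, and the median was −0.07. Lgr4, the R-spondin receptor that hepatocytes use beside Lgr5, was at 88.1 ± 7.85 CPM in WT and 74.5 ± 6.79 CPM in LKO livers (log2 fold change −0.24, adjusted p = 0.214, edgeR), and the co-receptor Lrp5 had −0.26 (adjusted p = 0.278). The destruction complex and Dishevelled list had all 15 tested, 8 above and 7 below 0, with a median of 0.0062. Its Ctnnb1, which encodes β-catenin, was at 164 ± 7.62 CPM in WT and 145 ± 10.9 CPM in LKO livers (log2 fold change −0.17, SE 0.062, adjusted p = 0.270, edgeR). The TCF/LEF factors and partners had 14 tested, 5 above and 9 below 0, with a median of −0.06. Tcf7l2, a TCF factor of hepatocytes, was at 27.4 ± 4.18 and 26.3 ± 2.11 CPM (adjusted p = 0.861, edgeR), and Tcf7l1, another TCF factor, at 8.98 ± 0.556 CPM in WT and 10.8 ± 1.51 CPM in LKO livers (log2 fold change 0.27, adjusted p = 0.289).

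The inhibitors had 7 of 15 tested, 3 above and 4 below 0. Notum, a secreted enzyme that inactivates Wnt ligands and is itself a target, was at 28.9 ± 4.08 CPM in WT and 21.2 ± 2.70 CPM in LKO livers. Its log2 fold change was −0.45 (SE 0.10) with an adjusted p of 0.0770 in edgeR, against 0.00762 with DESeq2 and 0.0477 without LKO replicate 3. Notum was not called in any of the other alternatives described below. Frzb, a secreted Frizzled-related protein that binds Wnt ligands, had an estimate in the other direction, from 1.09 ± 0.224 CPM in WT to 1.62 ± 0.494 CPM in LKO livers (log2 fold change 0.57, adjusted p = 0.350, edgeR). Of the other targets 8 of 9 were tested, 3 above and 5 below 0, with a median of −0.16. In edgeR 5 of these had an unadjusted p under 0.05, 2 of them lower and 3 higher, beside 11.7% of all genes. Lect2, a protein secreted by hepatocytes, had a log2 fold change of −0.31 (adjusted p = 0.164), Sox9 of −0.62 (adjusted p = 0.320) and Cd44 of 0.60 (adjusted p = 0.186) in edgeR. The highest estimates of this list were those of Myc, a transcription factor gene, at 4.50 ± 2.16 CPM in WT and 9.49 ± 7.28 CPM in LKO livers (log2 fold change 1.09, adjusted p = 0.323, edgeR), and of Ephb2, an ephrin receptor gene at 0.171 ± 0.130 and 0.363 ± 0.127 CPM (log2 fold change 1.09, adjusted p = 0.338). These last genes were named after their values were seen.

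Zonation genes that are not in the lists above, some of them β-catenin targets such as the pericentral cytochromes, were read in the same way. Of 12 other pericentral genes 5 were above and 7 below 0, and 1 was called in edgeR, beside 0.428% of all genes. At an unadjusted p under 0.05 in edgeR 5 of the 12 were counted, 3 lower and 2 higher, beside 11.7% of all genes. Gstm1, a glutathione transferase, rose from 719 ± 53.8 CPM in WT to 974 ± 54.6 CPM in LKO livers (log2 fold change 0.44, SE 0.066, adjusted p = 0.00725, edgeR), with groups that did not overlap. It belongs to a family of near copies, so its level is uncertain. The pericentral cytochromes Cyp1a2 and Cyp2e1 had log2 fold changes of −0.32 (adjusted p = 0.223) and 0.02 (adjusted p = 0.962), and Gulo, of vitamin C synthesis, had −0.30 with an adjusted p of 0.0792 in edgeR, 0.00215 in DESeq2 and 0.0479 without LKO replicate 4. Gulo was not called in any of the other alternatives. Of 16 periportal genes 3 were above and 13 below 0, with a median of −0.16 and none called. Cyp2f2 among them was at 1260 ± 124 and 950 ± 158 CPM (log2 fold change −0.41, adjusted p = 0.124 in edgeR and 0.0229 in DESeq2). Of the alternatives only DESeq2 called Cyp2f2. Estimates below 0 were thus counted both among the feedback genes and among periportal genes, and the difference between these lists was not tested. Of 14 genes of glutamine and glutamate handling 4 were above and 10 below 0, none was called, and Gls2, the periportal glutaminase, was at 386 ± 41.1 and 348 ± 76.4 CPM (log2 fold change −0.15, adjusted p = 0.732, edgeR).

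**Figure D3:**
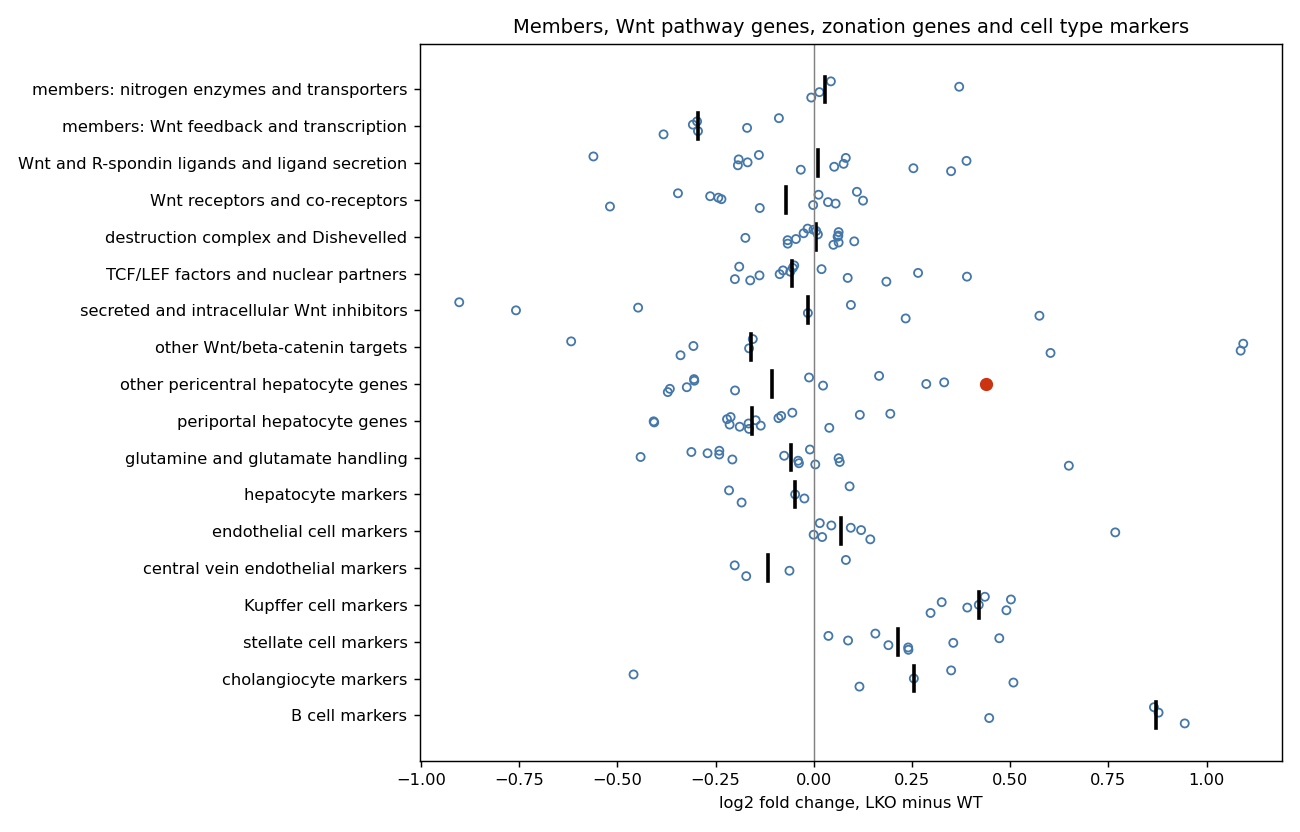
Log2 fold change, LKO minus WT (x axis), of every tested gene of each list (circles), with the median of the list (black bar). The filled red point is Gstm1 at 0.44, the one gene called at an adjusted p under 0.05.

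Markers of the cells in the tissue were given beside these counts, and none of the 41 passed the test in edgeR or limma voom, although 14 had an unadjusted p under 0.05 in edgeR, beside 11.7% of all genes. Of the 14, 12 had higher and 2 lower estimates in LKO livers. They included 6 of 7 Kupffer cell and 3 of 4 B cell markers, all higher, and 2 of 5 hepatocyte markers, both lower. DESeq2 called 4 of the 41 markers, beside 1.95% of all genes, namely the Kupffer cell genes Clec4f, Cd5l and Vsig4 and the endothelial gene Lyve1. The 5 hepatocyte markers were abundant, with a summed level of 90145 to 108267 CPM in WT and 81854 to 93194 CPM in LKO livers, 1 estimate above and 4 below 0, and Alb at −0.18 (adjusted p = 0.413). All 7 Kupffer cell markers had estimates above 0, with a median of 0.42 and a summed level of 99.7 to 129 CPM in WT and 125 to 215 CPM in LKO livers. All 8 stellate cell markers were above 0, with a median of 0.22 and a summed level of 196 to 299 CPM in WT and 241 to 346 CPM in LKO livers.

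Endothelial markers, 7 of 8 above 0, summed to 181 to 241 CPM in WT and 197 to 241 CPM in LKO livers. The 4 markers of central vein endothelium, the cells that make the ligands, had 1 estimate above and 3 below 0 and summed to 11.3 to 21.5 CPM in WT and 11.5 to 17.5 CPM in LKO livers. Cholangiocyte markers, 4 of 5 above 0, summed to 29.5 to 51.5 CPM in WT and 28.5 to 120 CPM in LKO livers, and the 4 B cell markers were all above 0, at 0.647 to 1.21 CPM in WT and 1.26 to 2.19 CPM in LKO livers. The part of these cells in the values of the pericentral genes was not tested.

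Whether the genes moved together from liver to liver was examined over the 12 livers after removal of the genotype means from log2 CPM. Of 45 pairs, 29 had a Pearson r above 0, and the median r was 0.24. Pairs drawn from all genes tested were not examined, so these values have no background beside them. By permutation within genotype (two-sided), 0 had an adjusted p under 0.05 by r or by Spearman's rho (Benjamini-Hochberg over 45 pairs). Unadjusted, 6 by r and 7 by rho were under 0.05. The closest pair was Oat and Slc1a2, with r = 0.83 (permutation p = 0.00217, adjusted 0.0976) and rho = 0.83 (permutation p = 0.00333, adjusted 0.15). Their r was 0.95 within WT and 0.67 within LKO livers, and 0.81 without the 2 livers farthest from the median of Oat. Leaving out each liver in turn gave r from 0.73 to 0.91, and the adjusted permutation p was under 0.05 without LKO replicate 3 alone, at 0.0315. The lowest r was that of Oat and Tbx3, at −0.72 (rho −0.64, adjusted permutation p = 0.157 and 0.316), and −0.57 without the 2 farthest livers.

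Glul and Oat had r = 0.58, with an adjusted permutation p of 0.382 (rho = 0.62, adjusted 0.316). Among the feedback genes, Rnf43 and Nkd1 had r = 0.67 and Lgr5 and Rnf43 had r = 0.64, neither with an adjusted p under 0.05. All values of a liver come from 1 library, so the genes of a pair share its depth and preparation.

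**Figure D4:**
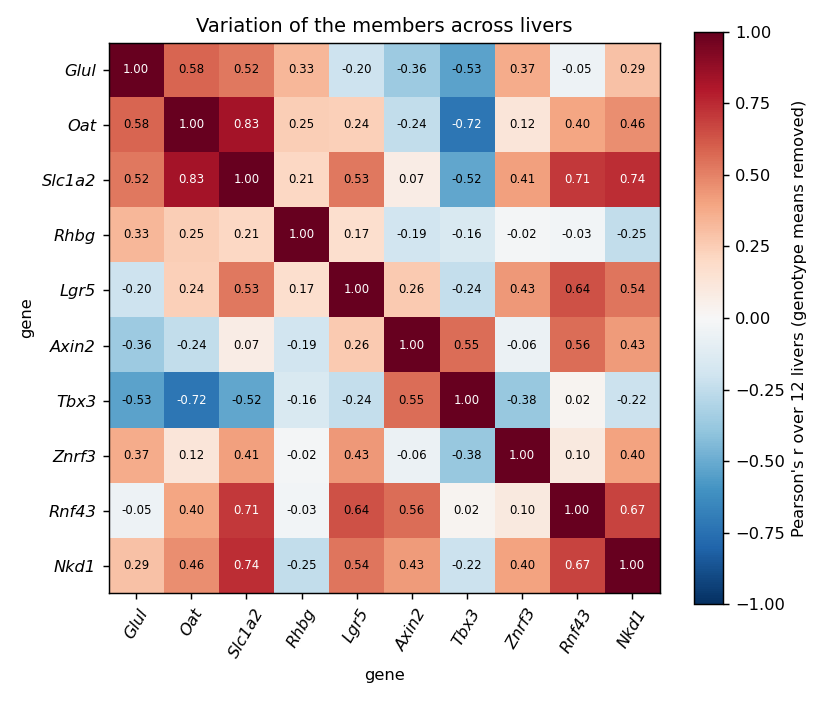
Pearson's r between each pair of the 10 genes over 12 livers (colour and number, scale −1 to 1), from log2 CPM with the genotype means removed. The highest is 0.83 for Oat and Slc1a2 and the lowest −0.72 for Oat and Tbx3.

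The genes most like Glul were searched among 17348 tested genes outside the lists, by Pearson's r of log2 CPM over the same 12 livers with the genotype means removed. Among the highest were 1700056E22Rik (r = 0.92), H2-Q1 (r = 0.92), Vwa3b (r = 0.91) and Hsd17b10 (r = 0.90). These values are the highest of a wide search and are given as a description. Of these genes, 1700056E22Rik was scarce at 0.740 CPM in WT and 0.669 CPM in LKO livers, as was Vwa3b at 1.17 and 0.888 CPM. H2-Q1 was at 6.81 CPM in WT and 18.5 CPM in LKO livers (log2 fold change 1.44, adjusted p = 0.0815, edgeR). Hsd17b10, a mitochondrial dehydrogenase, was at 124 CPM in WT and 123 CPM in LKO livers and did not pass the test between genotypes (adjusted p = 0.966, edgeR).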

How the data were processed

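The data were RNA-seq read counts of 12 livers, 6 per genotype, grouped by the genotype in the labels. The authors made mRNA libraries (KAPA mRNA HyperPrep, HiSeq4000), used Trimmomatic 0.36 for trimming, HISAT2 2.1.0 for alignment to GRCm38 (Ensembl 93) and HTSeq 0.6.1 for counting, and deposited raw counts per Ensembl gene. The strand setting and overlap mode are not given in the sources used here, so overlapping, antisense and near-copy genes are uncertain. Symbols, coordinates and exon lengths came from GENCODE M21, which held 54165 of the identifiers.

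A gene entered the test if its count exceeded 2 in 6 or more livers. After TMM scaling the counts were fitted in R 4.3.3 with edgeR 4.0.16 (quasi-likelihood F test), genotype being the only term. Log2 CPM used a prior count of 0.5, and correlations used 100000 permutations within genotype. The test was checked on simulated counts. Alternatives were limma voom 3.58.1 (the study's test), DESeq2 1.42.0, other scalings and filters, a replicate block, and each liver left out. The members and lists were chosen with earlier results of these data known. Named were the 10 members, some genes known in this pathway, and of each list those called and those with the lowest p, of which a part is printed. Tiki1 and Tf were not matched to the table. Each library is a separate mouse, so p-values measure the spread between mice. Some items that the naming rule covers are not reported here.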

Additional observations from a re-analysis of the deposited data

How the results depend on the processing

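In 21 alternatives none of the 10 genes was called, and their median log2 fold change stayed between −0.20 and −0.06. The 6 feedback and transcription genes stayed below 0 in all 21, with Axin2 from −0.48 to −0.28, Tbx3 from −0.36 to −0.22, Rnf43 from −0.40 to −0.23, Lgr5 from −0.40 to −0.18, Nkd1 from −0.26 to −0.06 and Znrf3 from −0.13 to −0.03, and the lowest adjusted p among them was 0.207, for Tbx3 (edgeR, limma or DESeq2). Rhbg stayed above 0, at 0.26 to 0.46. Genes near 0 changed sign: Glul was 0.0097 with upper-quartile scaling, 0.010 without a filter and 0.0021 with at least 10 reads in every liver. With single livers left out Glul ran from −0.036 to 0.036, Oat from −0.050 to 0.13 and Slc1a2 from −0.025 to 0.15. All tested genes called numbered 75, against 114 without a filter, 342 with DESeq2, and 38 (without WT replicate 5) to 132 (without WT replicate 3) with a liver left out. Pathway list genes called numbered 1, against 4 with DESeq2 and 1 to 2 with a liver left out (2 without LKO replicate 3 or 4). Correlated pairs numbered 0, against 0 to 1 with a liver left out. The cause of these shifts was not tested.

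Replicate numbers in the library names are shared by the genotypes, while the sample titles number the mice through both genotypes without repeats. Deviations of log2 CPM from the genotype means were compared between livers over genes with a mean log2 CPM above 0. Between same-numbered livers these deviations correlated from −0.17 to 0.29, and 1 of 6 WT livers correlated best with its own number. So few values cannot show whether the numbers pair the samples, and the main test took the livers as unpaired. With the number as a replicate block, 97 genes were called in all, 0 of the 10, and the median of the 10 was −0.13. Rhbg, Lgr5 and Nkd1 had the fewest reads, from 19 in the lowest liver for Rhbg to 186 in the highest for Lgr5, and the part of depth in their spread was not tested.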
